A study of Homo sapiens with 2 samples.

Results

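Genes of mitosis and the spindle were compared in H9 human embryonic stem cells between their substates 1 and 2. The 58 genes were listed by their known function. Of these, 56 had a probe that could be named, and all 56 were measured on both arrays, out of 16001 genes measured on both. PLK1, a kinase of mitotic entry and spindle assembly, and CENPM, a centromere protein, had no named probe and were not analysed here.

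The study described both substates in H9 cells kept on Matrigel, a basement membrane extract, in TeSR-E8 medium without feeder cells. It moved the cells from vitronectin to Matrigel at passage 35. Substate 1 was passage 35, the passage of that move, and substate 2 was passage 50. The sample titles and passages do not name the matrix. Whether the substate 1 cells grew on vitronectin or on Matrigel is therefore not known here. Substate, passage, matrix and time on Matrigel cannot be told apart. The study separated the substates by the R-10G epitope, a keratan sulphate of the cell surface that was strong in substate 1, and by vimentin, an intermediate filament protein seen in substate 2. A single RNA sample of each substate from the same cell line was hybridised to 1 array, and how the cells were collected for it was not given in the sources used here. No difference below therefore has a replicate check or a p-value, and each compares these 2 libraries.

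Cells make many of the proteins of mitosis anew in each cycle, from genes that are switched on in G2 and off again in G1. Cyclins and CDK1 drive entry into mitosis, condensins and topoisomerase compact the chromosomes, and kinetochores attach them to the spindle. The checkpoint holds the anaphase-promoting complex back until every chromosome is attached, and the central spindle then directs cytokinesis. Embryonic stem cells divide rapidly with a short G1 phase, so that a large part of a culture expresses these genes at any time.

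Genes of this period commonly carry a cell cycle homology region (CHR) close to the start site, a site of the DREAM and MuvB complexes, with CCAAT boxes of the factor NF-Y upstream. The promoters of RefSeq (GRCh38.p14), from 250 bases before to 50 bases after the start, were searched on both strands for the CHR (TTTGAA or TTCGAA), for CCAAT and for an E2F motif (TTCCCGC), where a CHR and a CCAAT can share bases. Of the 49 listed genes with a promoter in the table, 37 held a CHR (75.5%), against 19.5% of all 27305 genes in it, 15.9% of the 12360 of them measured on both arrays, and 16.4% of its 35116 promoters. A CCAAT was found in 38 of the 49 (77.6%) against 39.7% of all genes, and both motifs together in 29 of the 49 (59.2%) against 7.85%. In the genes of DNA replication and S phase a CHR was found in 3 of 50 (6%), a CCAAT in 30 of 50 (60%) and the E2F motif in 22 of 50 (44%). The E2F motif was in 8 of the 49 mitosis genes (16.3%), in 1481 of the 12360 measured genes and in 7.82% of all genes. In 26 of the mitosis genes a CHR lay between positions -50 and 10 from the start. A gene was counted as holding a motif if any of its promoters did, and 8 of the listed genes had several promoters.

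The promoters below are those of the 3 genes with the highest and the 1 gene with the lowest difference among the mitosis genes with a CHR. Each runs 5′ to 3′ on the strand of the gene, from 150 bases before to 30 bases after the start, and capitals mark the CHR and CCAAT motifs on either strand. The NCAPG promoter is at chr4:17810829-17811008 on the plus strand, that of CDCA8 at chr1:37692366-37692545 on the plus strand, that of ZWINT at chr10:56361230-56361409 on the minus strand and that of BUB1B at chr15:40160919-40161098 on the plus strand, all in GRCh38.p14.
NCAPG: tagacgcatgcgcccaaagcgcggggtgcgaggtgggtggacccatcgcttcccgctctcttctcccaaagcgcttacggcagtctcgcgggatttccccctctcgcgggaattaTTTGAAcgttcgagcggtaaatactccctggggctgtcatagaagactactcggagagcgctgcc
CDCA8: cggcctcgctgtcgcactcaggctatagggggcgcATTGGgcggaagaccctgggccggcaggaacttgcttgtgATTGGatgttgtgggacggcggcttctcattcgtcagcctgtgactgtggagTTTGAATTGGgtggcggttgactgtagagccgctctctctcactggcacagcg
ZWINT: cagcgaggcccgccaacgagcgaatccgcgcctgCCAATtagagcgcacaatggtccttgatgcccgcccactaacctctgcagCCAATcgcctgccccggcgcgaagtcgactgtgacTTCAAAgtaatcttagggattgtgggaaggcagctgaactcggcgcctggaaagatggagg
BUB1B: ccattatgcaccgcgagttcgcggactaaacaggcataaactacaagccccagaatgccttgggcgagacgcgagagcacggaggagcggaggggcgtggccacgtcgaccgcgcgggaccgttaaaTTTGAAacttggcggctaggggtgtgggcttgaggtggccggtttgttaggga
The CHR was at -35 to -30 in NCAPG, at -23 to -18 in both CDCA8 and BUB1B, and at -31 to -26 on the opposite strand in ZWINT. Another promoter of ZWINT, not shown, had it at -17 to -12. CDCA8, with a difference of 0.44, and BUB1B, with -0.19, thus had the motif at the same place. Over the 36 measured genes with a CHR the median difference was 0.24, and over the 12 measured genes that had a promoter without one it was 0.31. The split by the E2F motif went the other way, with a median of 0.36 over 8 genes with it and 0.22 over 40 without it.

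The mitosis genes were on the whole slightly higher in substate 2. Values are log2 signals relative to the 75th percentile of the same array, and a difference is substate 2 minus substate 1. The median difference was 0.25, with an interquartile range of 0.07 to 0.36, and over all 16001 genes the median was 0.08. A difference above 0 was found for 46 of the 56 genes (82.1%), against 59.8% of all genes. Under quantile normalisation and loess centring the median was 0.13 with each, and 39 and 38 of the 56 genes were above 0. The median of all genes was then 0.046 and 0.035. With each, 36 of the 56 genes lay above it, against 40 when scaled to the 75th percentile. In that last scaling the SD of the differences of the mitosis genes was 0.21. That of all genes was 0.38, but it was 0.28 among the brightest genes, where most of the mitosis genes lay, and it was 0.20 for S phase genes and 0.13 for ribosomal protein genes. They ran from -0.19 for BUB1B to 0.65 for NCAPG, which are the percentiles 21.8 and 96.8 of all genes. In bulk RNA more cells in G2 and mitosis and more RNA per cell cannot be told apart.

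**Figure D1:**
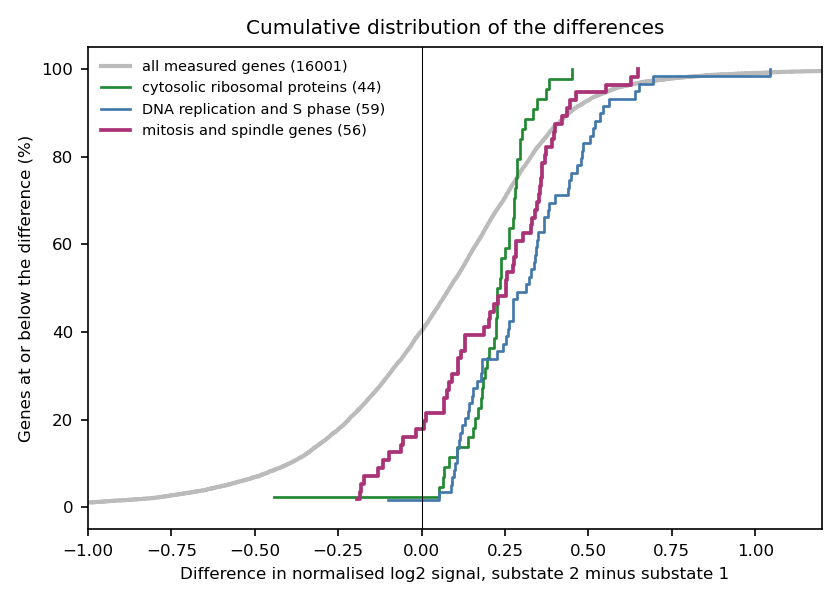
Cumulative share of genes (y axis, percent) by the difference in log2 signal, substate 2 minus substate 1 (x axis), for the mitosis genes (n = 56), the S phase genes (n = 59), the ribosomal protein genes (n = 44) and all genes measured on both arrays (n = 16001). The curve of the mitosis genes lay to the right of that of all genes over most of its length, with a median of 0.25 against 0.08, and no mitosis gene was lower by 1.3-fold. Genes beyond the ends of the x axis are not drawn.

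Few of these genes passed any fold limit. At 1.3-fold or more, 10 of the 56 (17.9%) were higher in substate 2, against a background of 15.0% of all genes, and this share was near the background. None of the 56 was lower by 1.3-fold, where the background was 10.7%. At 1.5-fold 2 genes, NCAPG and NCAPH, were higher (background 4.32%) and 0 were lower (background 5.03%). At 2-fold none was higher (background 0.931%) or lower (background 1.07%). By the Z-score of the study, with limits of 2 and -2 over all 58201 probes, 0 of the 69 probes of these genes passed, against 3.03% of all probes above and 3.30% below, and their Z-scores lay between -0.58 and 0.91.

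The size of these differences was then set against the errors that the arrays carry. Spots of the same probe differed little, and the SD of a difference between single spots was 0.07 over 291 probes printed 10 times. The scanner software gave a larger error, with a median of 0.20 for the difference of a mitosis gene. By their own software error 32 of the 56 genes were above 0 and none was below 0, and 7 genes exceeded 2 times this error, namely NCAPG, NCAPH, FOXM1, CKAP2, CDCA8, ZWINT and SKA1. Neither error covers the cells, the RNA or the labelling. The number of genes at 1.3-fold also moved with the scaling, from 4 under loess centring, where 11.9% of all genes passed, to 19 under centring on the median, where 19.0% did, whereas the median difference was above 0 and above that of all genes in each of the scalings tried. Of the group medians below, loess centring moved those of mitotic entry genes to 0.22 and the passenger complex to 0.21. It moved those of kinetochore genes to 0.11, anaphase genes to 0.23 and kinesins to 0.09. Other spindle proteins moved to 0.05 and central spindle genes to -0.14.

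**Figure D2:**
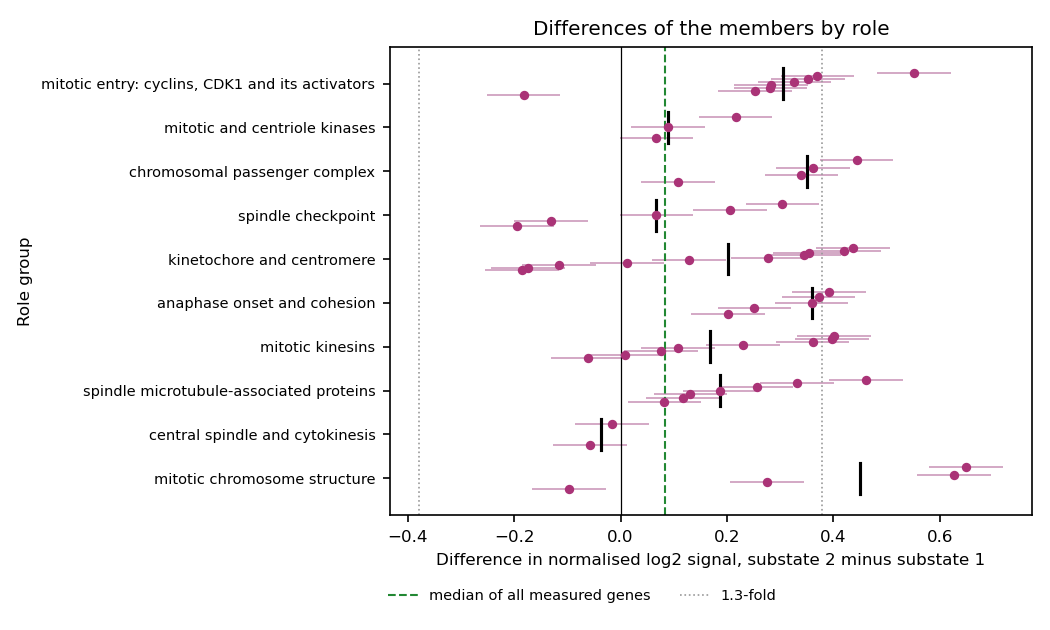
Difference in log2 signal, substate 2 minus substate 1 (x axis), of each of the 56 mitosis genes, in 10 groups by function (y axis). Bars are ±0.07, the SD of a difference between single spots, black ticks are group medians, and the dashed and dotted lines mark the median of all genes (0.08) and 1.3-fold. Chromosome structure and anaphase genes had the highest medians (0.45 and 0.36) and the central spindle genes the lowest (-0.04), the last of which turned to 0.00556 when the arrays were centred on the median.

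Genes that compact the chromosomes spanned a wide range. NCAPG, a HEAT-repeat subunit of condensin I, was at -0.64 in substate 1 and 0.01 in substate 2, a difference of 0.65. NCAPH, the kleisin subunit of the same complex, was at -2.99 and -2.36, a difference of 0.63 on a dim probe with a software error of 0.27. Both were higher in substate 2 by over 1.5-fold, and after normexp background correction the differences were 0.51 and 0.36. TOP2A, which untangles DNA strands before they part, was at 3.48 and 3.76 (0.27). MKI67, the Ki-67 protein that coats mitotic chromosomes and is widely stained to count cycling cells, was at 1.95 and 1.85 (-0.10), with its 3 probes at 0.05, -0.15 and -0.18. The other condensin I subunits, which were not in the list and were looked up after the values of NCAPG and NCAPH had been seen, did not share the size of the difference, with SMC2 at 0.21, SMC4 at 0.04 and NCAPD2 at 0.23.

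Among the genes of mitotic entry 7 of 8 were above 0, against 59.8% of all genes. Their median was 0.31, and 0.22 under loess centring. FOXM1, the transcription factor that switches on many G2 genes, was highest, at 3.30 in substate 1 and 3.85 in substate 2 (0.55). CDCA3, which helps to destroy the entry inhibitor WEE1, was at 2.66 and 3.03 (0.37). CDC25C and CDC25B, the phosphatases that activate CDK1, were at 1.77 and 2.12 (0.35) and at 1.83 and 2.16 (0.33). The cyclins lay close together. CCNB1 was at 4.26 and 4.54 (0.28), CCNA2 at 2.80 and 3.08 (0.28 ± 0.02, SE over 10 spots) and CCNB2 at 5.50 and 5.75 (0.25). CDK1, the kinase that these cyclins activate, stood apart from them at 1.28 and 1.09 (-0.18). The 2 CDK1 probes were both below 0, at -0.30 and at -0.07 ± 0.02 (SE over 10 spots).

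The kinases of the centrosome and centriole were measured for 3 of 4 genes and differed little. AURKA, which matures the centrosomes, was at 3.22 and 3.43 (0.22), and PLK4, the trigger of centriole duplication, was at 0.55 and 0.64 (0.09). NEK2, which lets the centrosomes part, was at -0.25 and -0.18 (0.07). The chromosomal passenger complex corrects wrong attachments and later moves to the central spindle. All 4 of its genes were above 0, against 59.8% of all genes, with a median of 0.35. CDCA8 (borealin) was highest at 4.31 and 4.75 (0.44), and its kinase AURKB was at 2.27 and 2.64 (0.36). BIRC5 (survivin) was at 6.39 and 6.73 (0.34 ± 0.02, SE over 10 spots). The scaffold of the complex, INCENP, was lowest at 2.79 and 2.90 (0.11 ± 0.02, SE over 10 spots).

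Genes of the spindle checkpoint were split around 0, with 3 of 5 above it, against 59.8% of all genes. Their median of 0.07 turned to -0.0119 under quantile normalisation and -0.0253 under loess centring. MAD2L1, the inhibitor of CDC20, was at 3.21 and 3.52 (0.30), and BUB3, which carries BUB1 and BUB1B to the kinetochore, was at 4.48 and 4.69 (0.21), with its probes at 0.05 and 0.36. TTK, the kinase that starts the signal, was at 2.62 and 2.69 (0.07). The paralogues BUB1 and BUB1B were both slightly lower in substate 2. The kinase BUB1 was at 4.09 and 3.96 (-0.13). BUB1B, a part of the complex that blocks the anaphase-promoting complex, was at 4.65 and 4.46 (-0.19), the lowest of the 56 genes.

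Kinetochore and centromere genes had the widest spread of the groups with at least 8 genes (SD 0.25). Of the 10 genes 7 were above 0, against 59.8% of all genes, with a median of 0.20. CENPF, among these 7, was below 0 under loess centring. ZWINT, which recruits the RZZ complex, was at 3.26 and 3.70 (0.44), and SKA1, which couples kinetochores to shrinking microtubules, was at 0.71 and 1.13 (0.42). KNTC1, the large RZZ subunit, went the other way at 3.57 and 3.38 (-0.19 ± 0.02, SE over 7 spots in substate 1 and 8 in substate 2). The NDC80 complex, the main microtubule grip of the kinetochore, was covered by 4 genes that did not move alike. SPC24 was at -1.02 and -0.66 (0.35), SPC25 at 3.55 and 3.90 (0.35) and NDC80 at 4.23 and 4.51 (0.28). Its subunit NUF2 was lower, at 2.08 and 1.97 (-0.12). CENPA, the histone of the centromere, was at 1.29 and 1.42 (0.13). The large outer proteins were not higher in substate 2, with CENPF at 3.61 and 3.63 (0.01) and the motor CENPE at 3.55 and 3.38 (-0.17 ± 0.02, SE over 10 spots).

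All 5 genes of anaphase onset and cohesion were above 0, against 59.8% of all genes, with a median of 0.36. UBE2C, the ubiquitin-conjugating enzyme of the anaphase-promoting complex, was at 5.37 and 5.77 (0.39), and CDC20, its mitotic activator, was at 3.65 and 4.02 (0.37). CDCA5 (sororin), which holds sister chromatids together, was at 4.92 and 5.28 (0.36). PTTG1 (securin), the inhibitor of separase, was lowest of the 5 at 6.94 and 7.15 (0.20). SGO1, which protects cohesion at the centromere, was at -0.39 and -0.14 (0.25). Its probes differed by more than 0.5, at 0.53 and -0.03, and it was the 1 mitosis gene for which they did.

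**Figure D3:**
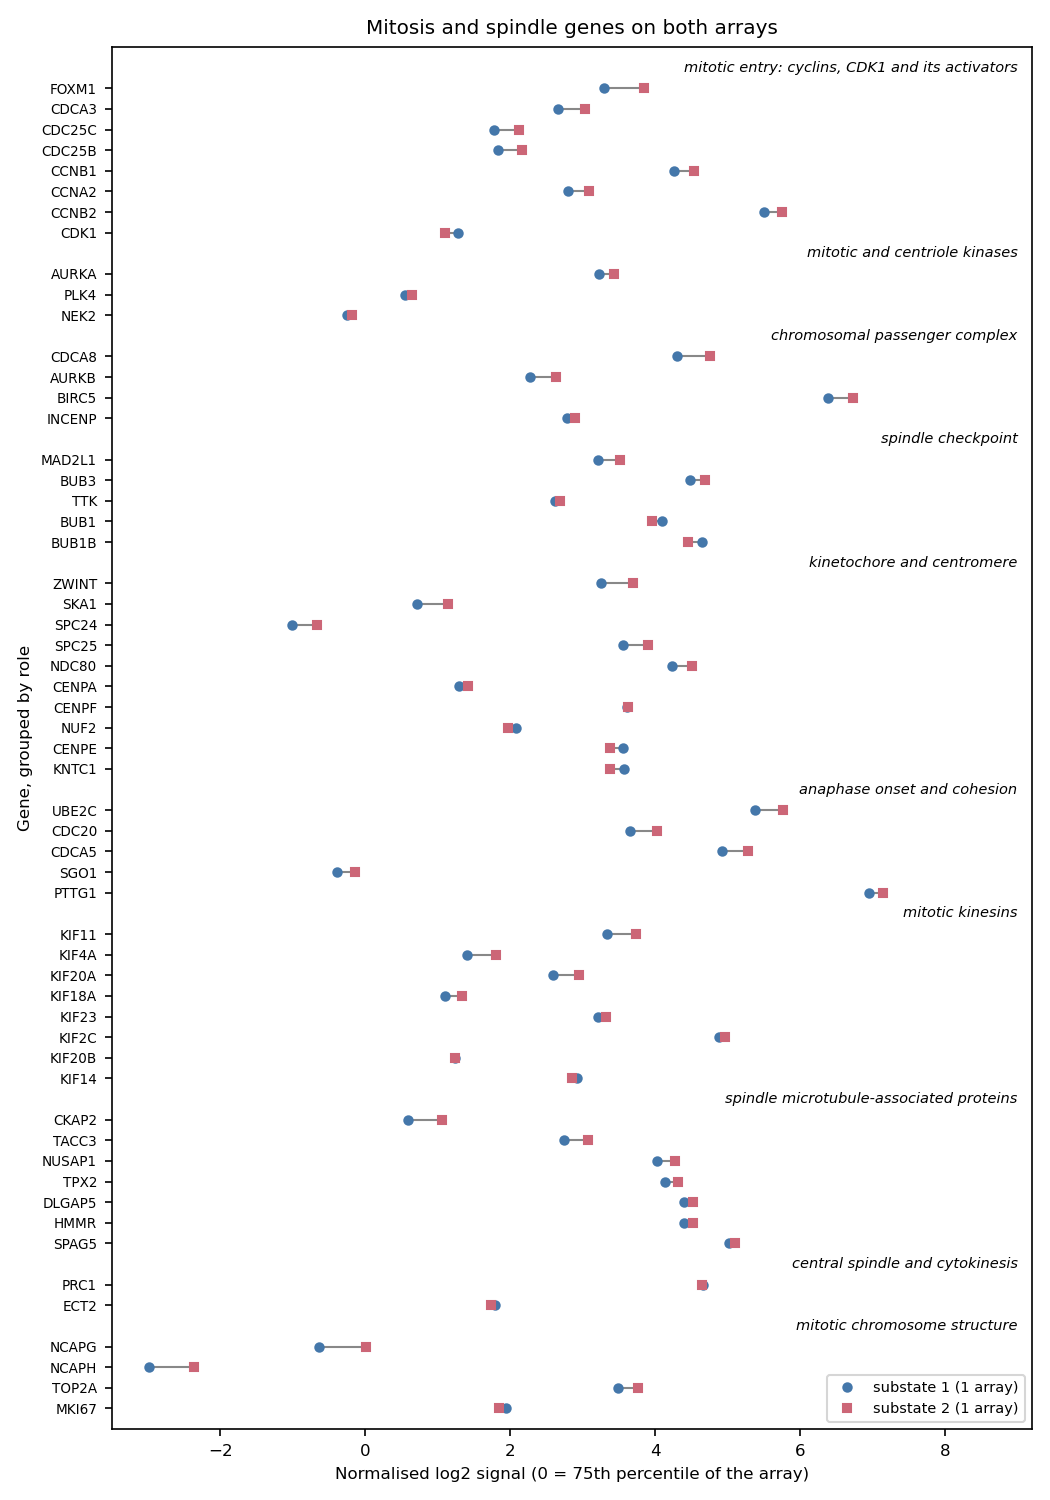
Log2 signal relative to the 75th percentile of the array (x axis) of each of the 56 mitosis genes (y axis) in substate 1 and in substate 2, with 1 array each. The pairs of points lie close together over the whole scale, from NCAPH at -2.99 and -2.36 to PTTG1 at 6.94 and 7.15, and signals of different genes are not comparable since each probe has its own brightness.

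Of the 8 mitotic kinesins 7 were above 0, against 59.8% of all genes, with a median of 0.17. KIF11, the motor that pushes the spindle poles apart, was at 3.33 and 3.73 (0.40), and KIF4A, a chromosome-bound motor that also shapes the central spindle, was at 1.41 and 1.81 (0.40), with 0.40 for each of its probes. KIF20A, a motor of cytokinesis, was at 2.58 and 2.95 (0.36), and KIF18A, which dampens chromosome oscillations, was at 1.11 and 1.33 (0.23). The remaining motors lay near the median of all genes or below it. KIF23, the motor subunit of centralspindlin, was at 3.21 and 3.32 (0.11), and KIF2C, which removes tubulin from microtubule ends, was at 4.89 and 4.96 (0.08). KIF20B was at 1.23 and 1.24 (0.01). Under loess centring KIF23, KIF2C and KIF20B were below 0, and under quantile normalisation KIF2C and KIF20B were. KIF14, which acts in cytokinesis, was lowest at 2.92 and 2.85 (-0.06).

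Every one of the 7 genes for other spindle proteins was above 0, against 59.8% of all genes, with a median of 0.19. CKAP2, which promotes microtubule growth, was highest at 0.59 and 1.06 (0.46), and both of its probes were alike (0.44 and 0.48). TACC3, which cross-links the fibres that pull on kinetochores, was at 2.74 and 3.07 (0.33), and NUSAP1, which bundles microtubules around chromosomes, was at 4.02 and 4.28 (0.26). The activator of AURKA, TPX2, was at 4.13 and 4.32 (0.19). DLGAP5 was at 4.39 and 4.52 (0.13), HMMR at 4.40 and 4.52 (0.12) and SPAG5 at 5.02 and 5.10 (0.08). These 3 genes, which act on spindle poles or kinetochore fibres, were below 0 under loess centring. The 2 genes of the central spindle were not higher in substate 2, with PRC1, the bundler of antiparallel microtubules, at 4.66 and 4.65 (-0.02) and ECT2, which activates RhoA at the cleavage furrow, at 1.79 and 1.73 (-0.06).

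Other genes that act in mitosis, from 8 lists of pathway genes, had medians of the same order. For the counts in this paragraph, 59.8% of all genes were above 0. The list of the anaphase-promoting complex, with its coactivator FZR1, the ubiquitin-conjugating enzymes UBE2S and UBE2D1 and the inhibitor FBXO5, had a median of 0.22 with 14 of 18 genes above 0, from CDC27 (-0.17) to ANAPC13 (0.49). Other kinetochore proteins had a median of 0.16 with 23 of 29 above 0 and CENPI highest (0.65), and other spindle and cytokinesis proteins a median of 0.20 with 25 of 28 above 0, from ANLN (-0.35) to KIF18B (0.58). Cohesin, condensin and separase genes were lower in the order, at 0.13 with 14 of 18 above 0, from NIPBL (-0.17) to PDS5B (0.32). At 1.3-fold, which 15.0% of all genes passed upwards and 10.7% downwards, none of these 4 lists had a lower gene, and 2 (11.1%), 6 (20.7%), 2 (7.14%) and 0 genes were higher, in the order of the lists above. Under loess centring the medians of the kinetochore, spindle and cohesin lists were 0.07, 0.12 and 0.05. Centriole assembly had a median of 0.17 with 10 of 15 above 0, 1 gene higher (CETN2, 0.65) and 1 lower (CEP152, -0.40) by 1.3-fold. The regulators of these genes in the DREAM, MuvB and E2F families had a median of 0.24 with 19 of 23 above 0. They ran from RBL2 (-0.37) to E2F2 (0.50), and 2 genes were higher by 1.3-fold and 0 lower. Brakes on entry and phosphatases had a median of 0.11 with 13 of 20 above 0, from CDC14A (-0.39) to CDC25A (0.36), with 0 higher and 2 lower by 1.3-fold. Tubulins, the building blocks of the spindle and of all other microtubules, had the highest median of these lists at 0.43, with 8 of 12 genes higher by 1.3-fold and 1 lower, from TUBE1 (-0.40) to TUBA1A (0.54), and a median of 0.23 under loess centring.

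The mitosis genes were compared with the other phases of the cell cycle and with the ribosome. Among all genes 59.8% were above 0 and 15.0% were higher by 1.3-fold. DNA replication and S phase genes had a median of 0.31, with 58 of 59 above 0 and 20 (33.9%) higher by 1.3-fold, from POLE (-0.10) to UHRF1 (1.04). Of the mitosis genes 46 of 56 were above 0 and 10 (17.9%) were higher by that fold, and the difference between the lists could not be tested. The 9 measured G1 cyclins, CDKs and inhibitors had a median of 0.30 with 8 above 0, from CDKN2A (-0.24) to CDKN1C (0.82), and 3 were higher by 1.3-fold. Cytosolic ribosomal proteins, which have no part in mitosis, had a median of 0.23 with 43 of 44 above 0, from RPS24 (-0.44) to RPS20 (0.45), nearly that of the mitosis genes. Loess centring lowered all of these medians except that of the G1 list by over 1.5 times, to 0.01 for the ribosomal proteins, 0.18 for the S phase genes and 0.13 for the mitosis genes.

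Signal moved with these values. All genes were put into 4 bins of like number by mean signal. The median difference of all genes was -0.01 in the dimmest bin, and in the following bins it was 0.03, 0.09 and 0.19. Of the mitosis genes 1, 5, 13 and 37 lay in these bins, dimmest first, with medians of 0.63, 0.25, 0.23 and 0.25. In the brightest bin 23 of the 37 mitosis genes were above the median of all genes in it. The median of the mitosis genes exceeded that of all genes by 0.17. Under quantile normalisation and loess centring, which act on this trend, it did so by 0.085 and 0.097. Across the 56 genes, which are not replicates and share both arrays, the difference had a Spearman correlation of -0.08 with mean signal, and across all genes it was 0.16.

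**Figure D4:**
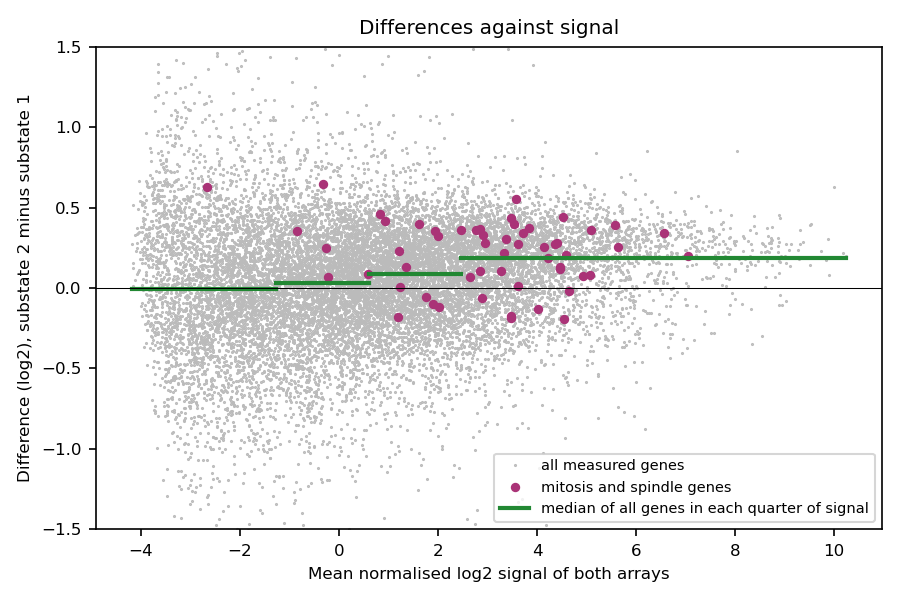
Difference in log2 signal, substate 2 minus substate 1 (y axis), by mean log2 signal over both arrays (x axis), for all 16001 genes and the 56 mitosis genes. The difference of all genes rises with signal, from a median of -0.01 in the dimmest of 4 bins to 0.19 in the brightest, in which 37 of the mitosis genes lie with a median of 0.25. Green lines are the medians of all genes in each bin, and genes with differences beyond the ends of the y axis are not drawn.

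By chromosome, 8 chromosomes carried at least 4 of the mitosis genes. The 6 genes on chromosome 4 had a median of 0.29 against 0.03 for all measured genes of that chromosome, and the 5 on chromosome 5 had 0.28 against 0.04. On chromosome 1 the 7 genes, with 0.07 against 0.09, and on chromosome 10 the 6 genes, with 0.11 against 0.11, were not above the rest of the chromosome. Chromosome 20 is of interest because gain of 20q11.21 recurs in cultured stem cells. Its 4 mitosis genes, AURKA, CDC25B, TPX2 and UBE2C, had a median of 0.27 against 0.14 for the chromosome. TPX2, which lies in 20q11.21, was at 0.19, and the 21 measured genes of that band had a median of 0.22, from POFUT1 (-0.29) to FOXS1 (2.30). Copy number was not measured.

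The label of both samples was checked against cell type markers. Of 12 pluripotency markers 10 were measured, of which 7 were above 0 and 3 below, with a median difference of 0.18. The pluripotency factors POU5F1, at 7.87 and 8.14 (0.27), NANOG, at 5.25 and 5.67 (0.42), and SOX2, at 5.85 and 6.11 (0.26), were above 0, and SALL4 (-0.03), TERF1 (-0.20) and PODXL (-0.35) were below. Single markers of the epithelial and mesenchymal states differed by more than any mitosis gene, although vimentin was also used to tell the substates apart. CDH1 (E-cadherin) was lower in substate 2 by 1.47 on the log2 scale (-1.47), VIM (vimentin) was higher by 2.53 and ZEB1, a repressor of CDH1, by 2.54. The lists were not uniform. Of the 12 epithelial markers 2 were above 0, KRT8 (0.33) and KRT18 (0.24). Of the 7 measured mesenchymal markers 3 were below 0, COL1A1 (-0.49), COL1A2 (-0.50) and THY1. Sums of linear levels over a marker list are weighted to its brightest probes, such as that of THY1 (7.26 and 7.15, -0.11) among the mesenchymal markers, and are given as a description only. Each sum below covers all 12 genes of its list, also those near background, and the fold counts cover only genes measured on both arrays. At 1.3-fold 15.0% of all genes were higher and 10.7% lower. The epithelial sum went from 329.8 to 259, with 7 of 12 measured genes lower and 0 higher by 1.3-fold. That of the mesenchymal markers went from 177 to 206 (of 7 measured, 2 lower and 3 higher). The neural progenitor sum went from 45.4 to 53.2 (of 7 measured, 0 lower and 4 higher). For neuronal markers it went from 34.1 to 42.4 (of 9 measured, 1 lower and 3 higher). Of 12 mesendoderm and endoderm markers 7 were near background on both arrays, among them TBXT, MIXL1, EOMES, GSC and SOX17. The part of these shifts in the differences of the mitosis genes was not tested.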

How the data were processed

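RNA of H9 cells of substate 1 and of substate 2 was labelled with Cy3 and hybridised to 1 Agilent single-colour array each, on the same slide and in the same scan. The authors deposited the scanner output of Feature Extraction 11.5.1.1, in which the intensity of each spot is background-subtracted, and a matrix of log2 values that differed from those computed here by 1 constant per array (58201 of 58201 probes within 0.01). The scale and direction of the matrix are thus known, and its column medians were -3.56 and -3.61. Of 60901 non-control spots per array, 57.4% in substate 1 and 54.7% in substate 2 were well above background and 0 were saturated. The 75th percentile of the signal was 313.7 and 275.4.

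Processed intensities (floor of 1) were log2 transformed, outlier spots were left out, spots were averaged per probe, and the 75th percentile of the array over all non-control probes was subtracted. A gene value is the mean over its probes well above background on both arrays. Probes were named through RefSeq accessions (GRCh38.p14), for 31104 of 58201 probes (53.4%). The array was annotated on hg19, so no coordinates of probes are given. The Z-score is the difference minus its mean over all probes, divided by its SD (0.63), which puts the limits at 2.53-fold higher and 2.29-fold lower.

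With 1 array per group no test was possible, and precision is limited by the number of arrays. The listed genes and all gene lists were chosen with earlier results of these data known. All listed genes are named, with the highest and lowest gene of each pathway and comparison list (1 of these is not reported here), 6 marker genes and, for the promoters, the 3 highest and the 1 lowest gene with a CHR. SMC2, SMC4, NCAPD2, UBE2S, UBE2D1, FZR1, FBXO5 and the other markers in the text were named after their values were seen. AURKA, BIRC5, BUB3, CENPM, FOXM1, KNTC1, TPX2, TTK and UBE2C had no promoter in the table. The alternatives were other scalings, normexp correction (limma 3.58.1 in R 4.3.3, offset 50), outlier spots kept, no floor, the deposited matrix and other probe rules. Python 3.11.15, numpy 2.4.6, pandas 2.3.3 and scipy 1.17.1 were used, and the computations were tested on simulated data.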

Additional observations from a re-analysis of the deposited data

How the results depend on the processing

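The median difference of the mitosis genes was 0.25 and stayed above 0 and above that of all genes under each alternative run, at its lowest 0.13 under quantile normalisation and 0.13 under loess centring, where it exceeded the median of all genes by 0.085 and 0.097. In the dimmest of the 4 signal bins, an alternative chosen after seeing the data, it was 0.63 and rested on NCAPH alone. The number of genes higher by 1.3-fold was 19 with centring on the median and 5 with the 75th percentile taken over probes well above background on both arrays. It was 6 under quantile normalisation, 4 under loess centring and 6 after normexp correction. Of all genes 19.0%, 10.2%, 12.4%, 11.9% and 8.82% passed under these settings, in the same order. The number higher by 1.5-fold was 1 with that 75th percentile (3.28% of all genes) and 0 after normexp (1.82% of all genes). Normexp also put 1 probe (FOXM1) past the Z-score limit. The median of the central spindle genes turned to 0.00556 with centring on the median, and that of the spindle checkpoint genes to -0.0119 under quantile normalisation and -0.0253 under loess centring. For all of these the cause was not tested.

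No paired analysis was possible because there was only 1 array per group, and for the same reason no replicate was left out and no slide term was fitted. Naming probes by a gene name column was not run, since the files used here have no such column. Normexp used the median signal and background of each spot, as no mean signal was in those files. Precision falls near background, and NCAPH is the 1 mitosis gene in the dimmest bin.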
